A study of Mus musculus with 7 samples.

Results

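The genes around Ucp1 on mouse chromosome 8 were followed one by one in brown fat of mice with and without PGAM5. They were taken by symbol from a list of neighbours of Ucp1 that was drawn up with results of the same comparison known, and Ucp1 itself was left out. They are Usp38, Inpp4b, Zfp330, Rnf150, Tbc1d9, Elmod2, Clgn and Scoc, 8 of 53715 gene rows. Of the 8, 7 passed the filter on low counts, which kept 15123 genes, and Clgn did not. The tissue was the interscapular brown fat pad. All mice were male C57BL/6J and 10 weeks old. The wild-type group (WT) has 3 libraries and the PGAM5 KO group (KO), which lacks a mitochondrial phosphatase, has 3 libraries with counts. KO replicate 4 of the labels was not analysed here. The labels name no further allele or treatment and do not say how the KO allele was made. The design text counts the samples as individual mice.

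Ucp1 encodes the uncoupling protein that lets the mitochondria of brown fat turn fuel into heat, and it is among the most specific genes of that tissue. Its neighbours belong to unrelated families. Rnf150 encodes a membrane protein with a RING finger, the fold that ubiquitin ligases use. Usp38 encodes an enzyme that removes ubiquitin. Scoc encodes a short coiled-coil protein of the Golgi that takes part in autophagy. Elmod2 encodes a GTPase-activating protein for Arl2, and Tbc1d9 a member of the TBC family of Rab GTPase-activating proteins. Inpp4b encodes a phosphatase of signalling phosphoinositides. Zfp330 encodes a zinc finger protein of the nucleolus. Clgn encodes calmegin, a chaperone of the endoplasmic reticulum best known from male germ cells.

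On chromosome 8 (mm10, positions from GENCODE M21) Ucp1 spans 83290352 to 83298452 on the plus strand. The nearest member after it is Elmod2 (ENSMUSG00000035151.12, 83312632 to 83332486), 14.2 kb away. Then follow Clgn (ENSMUSG00000002190.13, 83389867 to 83428552) at 91.4 kb and Scoc (ENSMUSG00000063253.11, 83430084 to 83458391) at 132 kb. Before Ucp1 the nearest is Tbc1d9 (ENSMUSG00000031709.15, 83165352 to 83272934), 17.4 kb away. Rnf150 (ENSMUSG00000047747.10, 82863356 to 83091268) lies 199 kb and Zfp330 (ENSMUSG00000031711.7, 82763607 to 82774160) 516 kb before it. Inpp4b (ENSMUSG00000037940.17, 81342556 to 82127914) and Usp38 (ENSMUSG00000038250.9, 80980733 to 81014928) lie 1162 and 2275 kb before it. Rnf150, Tbc1d9, Clgn and Inpp4b are on the plus strand like Ucp1, and the other 4 are on the minus strand.

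Promoter windows are shown for Scoc and Zfp330, members whose WT and KO libraries did not overlap, and for the closest genes on each side of Ucp1, Elmod2 and Tbc1d9. The windows run from 250 bases before to 50 bases after a RefSeq start (GRCm38.p6), 5′ to 3′ on the strand of the gene. RefSeq windows were found for 6 of the 8 members, 7 windows in all, and not for Rnf150 and Clgn. Capitals mark a CCAAT box (CCAAT) or a GC box (GGGCGG), read on both strands, and no marked matches overlap.
Zfp330 (chr8:82774096-82774395, minus strand): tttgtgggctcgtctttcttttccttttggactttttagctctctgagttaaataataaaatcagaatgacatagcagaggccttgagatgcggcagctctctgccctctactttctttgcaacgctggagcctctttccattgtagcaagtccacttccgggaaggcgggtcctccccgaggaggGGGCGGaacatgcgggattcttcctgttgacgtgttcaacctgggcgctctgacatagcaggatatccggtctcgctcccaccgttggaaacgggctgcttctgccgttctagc
Scoc, inner start (chr8:83442613-83442912, minus strand): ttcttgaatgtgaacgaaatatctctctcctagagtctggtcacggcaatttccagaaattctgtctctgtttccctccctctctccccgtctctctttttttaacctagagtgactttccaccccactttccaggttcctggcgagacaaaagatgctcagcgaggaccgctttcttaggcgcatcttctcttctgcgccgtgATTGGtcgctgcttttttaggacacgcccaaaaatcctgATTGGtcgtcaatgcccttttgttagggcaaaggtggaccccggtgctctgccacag
Scoc, outer start (chr8:83458347-83458646, minus strand): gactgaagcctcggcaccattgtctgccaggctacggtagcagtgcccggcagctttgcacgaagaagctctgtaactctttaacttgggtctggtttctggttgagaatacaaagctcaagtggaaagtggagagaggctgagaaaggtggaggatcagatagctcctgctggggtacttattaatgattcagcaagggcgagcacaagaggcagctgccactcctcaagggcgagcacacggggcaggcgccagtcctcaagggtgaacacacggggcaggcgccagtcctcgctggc
Elmod2 (chr8:83332437-83332736, minus strand): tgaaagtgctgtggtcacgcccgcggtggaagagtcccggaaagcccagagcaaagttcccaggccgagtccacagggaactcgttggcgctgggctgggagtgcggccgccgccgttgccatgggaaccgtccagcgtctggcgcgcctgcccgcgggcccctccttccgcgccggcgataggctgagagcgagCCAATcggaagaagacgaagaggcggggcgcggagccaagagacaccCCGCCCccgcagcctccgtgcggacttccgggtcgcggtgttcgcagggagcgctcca
Tbc1d9 (chr8:83165102-83165401, plus strand): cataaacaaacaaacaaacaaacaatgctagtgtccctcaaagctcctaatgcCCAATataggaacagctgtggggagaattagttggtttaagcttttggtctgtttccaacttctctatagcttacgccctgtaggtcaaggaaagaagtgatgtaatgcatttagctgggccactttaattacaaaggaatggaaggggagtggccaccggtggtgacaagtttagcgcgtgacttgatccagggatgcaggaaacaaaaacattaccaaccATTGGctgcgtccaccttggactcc
The inner Scoc window holds CCAAT boxes that begin at -46 and -7 from the start, and the outer window holds none of the motifs searched. Zfp330 has a GC box at -64. Elmod2 has a CCAAT box at -55 and a GC box at -8, and Tbc1d9 has CCAAT boxes at -197 and 25. Of 32851 RefSeq windows of this length, 37.4% hold a CCAAT box and 35.7% a GC box. A TATA box (TATAAA, in 13.6% of windows) and a cAMP response element (TGACGTCA, in 1.79%) were searched too and matched in none of the 7 windows. CpG pairs numbered 36 in Elmod2, 15 in Zfp330, 13 and 11 in the inner and outer Scoc windows and 5 in Tbc1d9, where the median window has 7.

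Total counts ran from 18034204 to 33617762 per library. Pgam5 had 122 to 186 counts in WT and 1 to 11 in KO, lower in every library labelled KO. On the first principal component WT 2 was at -65.0, KO 3 at 66.8 and the remaining 4 libraries at -13.0 to 8.2. WT 2 and KO 3 also had the highest and the lowest share of counts from the mitochondrial genome, 43.0% and 19.7%, against 28.2% to 34.1% in the others. Of 10 brown adipocyte markers, all 10 were detected and passed the filter. In bulk tissue, fewer cells of a type and less RNA per cell cannot be told apart. Nothing in the labels says how extractions were grouped. The p-values set the difference between the groups against the spread between libraries within a group.

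Of the 7 tested members, Rnf150, Scoc and Zfp330 were lower in every KO library than in any WT library. That is 3 of 7, where 9.39% of all tested genes lay lower without overlap. Rnf150 alone passed the threshold of the edgeR fit (adjusted p of 0.05), 1 of 7, where 0.0397% of all genes passed as lower. The members were listed with this same contrast known. Their differences, and whether a member passed a threshold in one fit or another, are therefore a description of the values that chose them, and nothing is read from these counts. The other 4 tested members, Elmod2, Tbc1d9, Inpp4b and Usp38, overlapped between the groups.

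Rnf150 was counted 622, 567 and 587 times in WT 1 to WT 3, against 67, 63 and 38 times in KO 1 to KO 3. As CPM, counts scaled to library size, the WT libraries held 25.1, 37.8 and 17.3 and the KO libraries 3.05, 2.70 and 1.86. The lowest WT library was 5.67 times the highest KO library, a larger ratio than between any libraries of 1 group. Mean levels were 26.7 ± 10.4 CPM over WT against 2.54 ± 0.613 CPM over KO (SD, n = 3 each), 10.5-fold apart. The log2 fold change, KO minus WT, was -3.39 (SE 0.33). Reads remained in all KO libraries, and the overlapping genes Gm18212 and Gm45449 held 0 and 9 counts in all against 1944 for Rnf150. Whether the counts of KO cover the whole transcript cannot be read from a table of gene totals.

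Scoc was at 56.7, 80.3 and 45.1 CPM in WT 1 to WT 3 and at 27.5, 30.8 and 22.2 CPM in KO 1 to KO 3. The lowest WT library was 1.46 times the highest KO library. Mean levels were 60.7 ± 18.0 CPM and 26.8 ± 4.35 CPM (SD, n = 3 each), with a log2 fold change of -1.18 (SE 0.23). It did not pass in the filtered edgeR fit or in limma-voom, which called 0.0463% of all genes in either direction. It passed in DESeq2, where 0.553% of all genes passed as lower, and in edgeR with no filter, which called 663 genes. With 454 to 1531 counts per library, Scoc was the most deeply counted member that separated the groups.

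Zfp330 was at 29.0, 30.2 and 23.2 CPM in WT 1 to WT 3 and at 19.7, 19.8 and 17.0 CPM in KO 1 to KO 3. The groups were close to each other, with the lowest WT library 1.17 times the highest KO library. Means were 27.5 ± 3.72 CPM over WT against 18.8 ± 1.59 CPM over KO (SD, n = 3 each), log2 -0.54 (SE 0.17). It did not pass with edgeR, DESeq2 or limma-voom.

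In Rnf150, Scoc and Zfp330 alike, WT 2 was the highest WT library, WT 3 the lowest, and KO 3 the lowest KO library. WT 2 and KO 3 are also the extremes of the first principal component. As they are the highest WT and the lowest KO library here, leaving out both was bound to make these differences smaller. Without both, the log2 fold changes were -2.88 (SE 0.26) for Rnf150, -0.80 (SE 0.17) for Scoc and -0.40 (SE 0.18) for Zfp330. Rnf150 passed without both and also without WT 1, WT 2, WT 3 or KO 3. It no longer passed without KO 1 (log2 -3.53) or KO 2 (log2 -3.44), where the difference was as large but 1 or 0 genes in all passed.

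**Figure D1:**
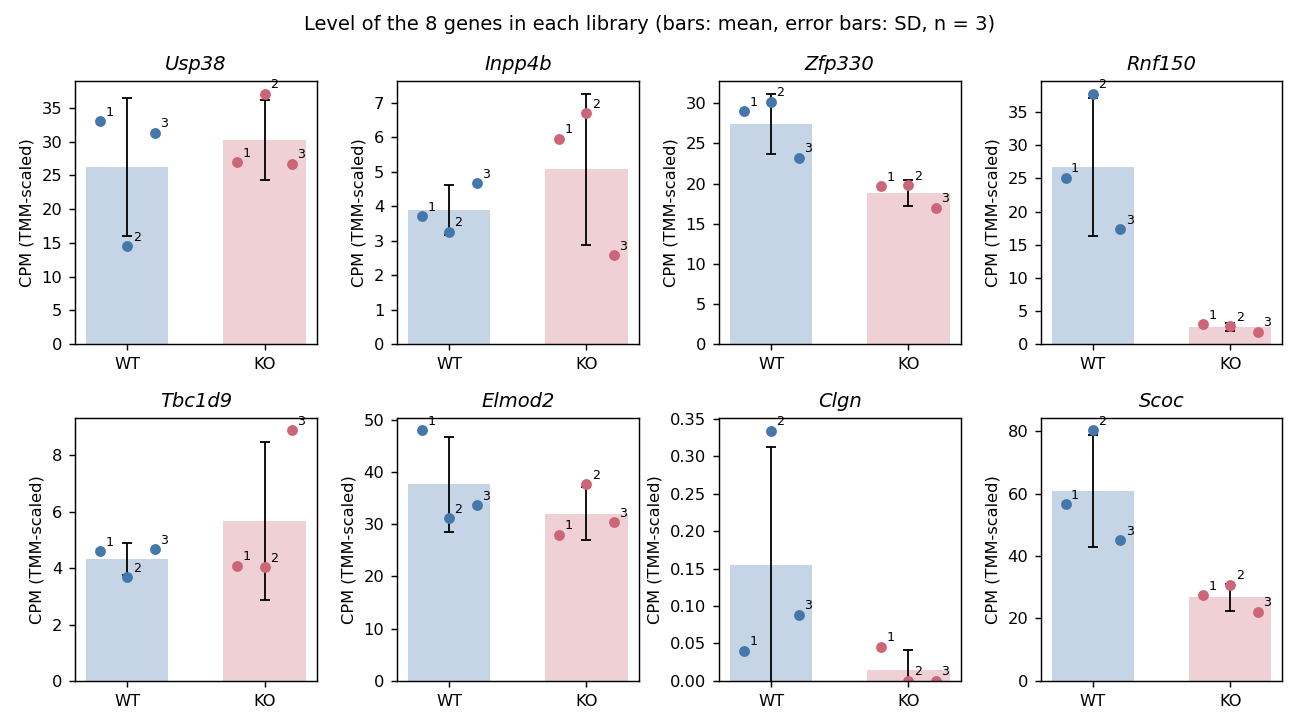
Level of each of the 8 genes in TMM-scaled CPM (y axis, each panel on its own scale from 0) in WT and KO. Points are libraries with their replicate number, bars are means and error bars SD (n = 3); Rnf150, Scoc and Zfp330 show WT and KO points that do not overlap, and Clgn stays under 0.35 CPM.

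The pair of genes that flank Ucp1 directly showed no such separation. Elmod2, 14.2 kb after Ucp1, gave WT levels of 48.0, 31.2 and 33.7 CPM against KO levels of 28.0, 37.7 and 30.4 CPM (log2 -0.23, SE 0.21). KO 2 lay above WT 2 and WT 3. Tbc1d9, 17.4 kb before Ucp1, gave WT levels of 4.61, 3.67 and 4.68 CPM against KO levels of 4.09, 4.03 and 8.89 CPM (log2 0.39, SE 0.35). Its highest value was that of KO 3 alone, and the log2 fold change was -0.09 without that library. A pseudogene on the same strand inside Tbc1d9, Gm17999, held 32 counts against 694 for Tbc1d9.

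The farther members before Ucp1 overlapped as well. Inpp4b, the phosphoinositide phosphatase gene, gave WT levels of 3.72, 3.27 and 4.68 CPM against KO levels of 5.96, 6.70 and 2.59 CPM (log2 0.38, SE 0.36). KO 1 and KO 2 lay above all WT libraries and KO 3 below them. Usp38, the deubiquitinase gene, gave WT levels of 33.0, 14.5 and 31.3 CPM against KO levels of 26.9, 37.1 and 26.7 CPM (log2 0.20, SE 0.29). WT 2 was lowest by a wide margin, and without it the log2 fold change was -0.09. An antisense gene that overlaps Usp38, Gm9725, held 61 counts against 4104.

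Clgn was counted 1, 5 and 3 times in the WT libraries, against 1, 0 and 0 times in the KO libraries, 10 in all. A count of 0 leaves room for 3 counts, which equal 0.0883 to 0.200 CPM depending on the library, and only WT 2 (0.334 CPM) was above its own limit. Clgn did not pass the filter, so the filtered edgeR fit did not test its difference, and no fold is given. Floors of this kind cover counting error only.

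Levels can be compared between genes only per length, here as CPM per kb of annotated exon. In WT, Scoc was highest at 14.2 ± 4.20 CPM per kb (SD, n = 3). It was followed by Zfp330 (4.83 ± 0.653), Usp38 (4.58 ± 1.78) and Elmod2 (3.38 ± 0.813), and neighbours among these last 3 overlapped in range. Rnf150 (1.55 ± 0.601), Tbc1d9 (0.733 ± 0.0957), Inpp4b (0.298 ± 0.0552) and Clgn (0.0383 ± 0.0391) came below, each apart from the next. In KO, Rnf150 stood at 0.147 ± 0.0355 CPM per kb and ranked below Inpp4b (0.389 ± 0.168). Usp38 (5.28 ± 1.04) ranked next to Scoc (6.27 ± 1.02) with overlapping ranges. The median of all tested genes was 2.81 CPM per kb. Annotated exons of Rnf150 add up to 17242 bases over all its transcripts, and which of them brown fat uses cannot be read from gene totals.

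Ucp1 itself averaged 2297 ± 614 CPM over WT against 4782 ± 1115 CPM over KO (SD, n = 3 each), log2 1.06 (SE 0.28). Ucp1 did not pass in the filtered edgeR fit or in limma-voom. It passed in DESeq2, where 1.12% of all genes passed in either direction, and in edgeR with no filter, which called 663 genes. Its sign was opposite to that of Rnf150, Scoc and Zfp330. In all 4 the WT and KO libraries did not overlap, where 19.5% of all tested genes did not overlap in either direction. In Tbc1d9 and Elmod2, which lie closer to Ucp1 than Rnf150, Scoc and Zfp330, the libraries overlapped. The members were listed with this contrast known, so nothing is read from their order by distance.

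**Figure D2:**
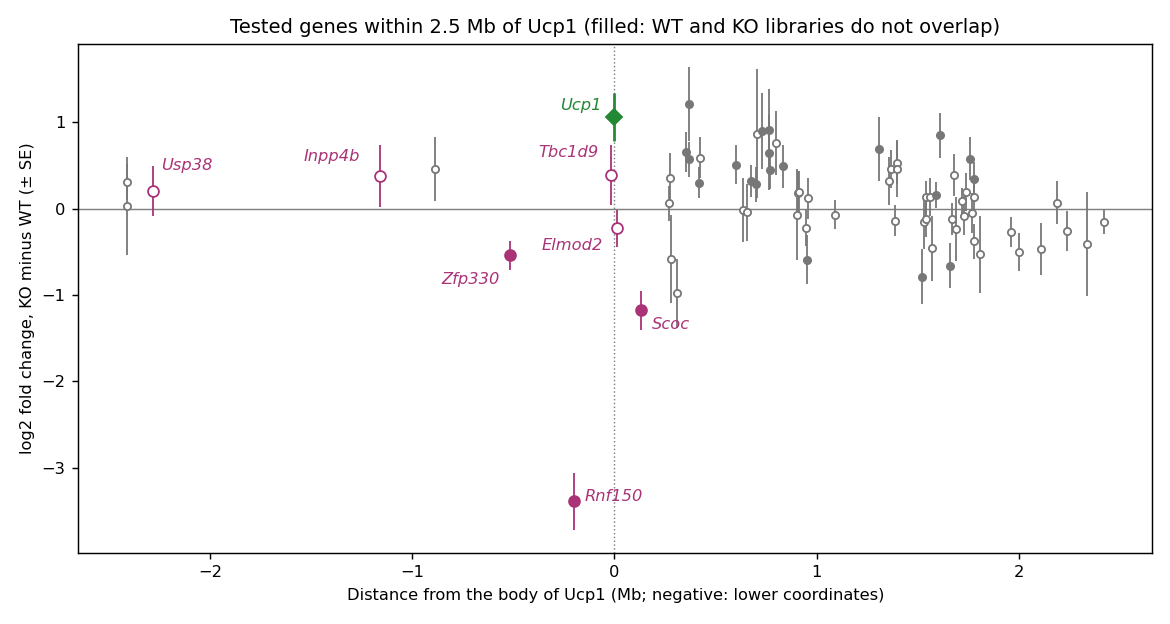
Log2 fold change, KO minus WT, with its SE (y axis) for each gene tested up to 2.5 Mb from Ucp1, against distance from the body of Ucp1 in Mb (x axis). Filled points are genes whose WT and KO libraries do not overlap; Rnf150 at -3.39 and Scoc at -1.18 are the lowest points, on either side of Ucp1 (diamond).

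Of 30 annotated genes within 0.5 Mb of Ucp1, 13 were tested, among them Rnf150, Tbc1d9, Elmod2 and Scoc. The other 9 are no members. An unadjusted p under 0.05 in edgeR was reached by 5 of these 9, against 11.8% of all genes. Of the 9, 1 was lower at this p (Dnajb1) and 4 were higher, where 5.49% of all genes were lower and 6.3% higher. Among the 4 members Rnf150 and Scoc were below it too, which makes 7 of 13. Gipc1, the gene of a PDZ scaffold protein, averaged 12.3 ± 1.51 CPM over WT against 19.3 ± 5.44 CPM over KO. Ptger1, a prostaglandin E receptor gene whose reads are uncertain where counting ignored strand, averaged 1.39 ± 0.741 against 3.26 ± 0.824 CPM (SD, n = 3 each). Their log2 fold changes were 0.66 (SE 0.23) and 1.21 (SE 0.43). KO libraries lay above WT libraries in both, and in Ddx39 (log2 0.30, SE 0.18), where 10.1% of all genes lay higher without overlap.

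Adgre5, an adhesion receptor gene, had a log2 fold change of 0.59 (SE 0.24) and Dnajb1, a heat shock cochaperone gene, one of -0.98 (SE 0.40). Adgre5 overlaps Ddx39 on the opposite strand, so both may share reads where counting ignored strand. Dnajb1 was at 83.5 CPM in WT 3 and at 22.2 to 30.4 CPM in the other 5 libraries. Ndufb7 (log2 0.06, SE 0.20), Tecr (0.35, SE 0.30) and the antisense gene D830024N08Rik (-0.58, SE 0.51) overlapped between the groups. None of these 8 genes passed after adjustment in edgeR, DESeq2 or limma-voom. The count of 5 of 9 at an unadjusted p under 0.05 was 0 without KO 3 (6.53% of all genes) and 2 without WT 3 (12% of all genes). It was 3 without WT 1, KO 1 or KO 2. Without both WT 2 and KO 3 it was 2 of 9 (8.49% of all genes), Dnajb1 and Gipc1. The median log2 fold change of the 9 was 0.35 with all libraries, 0.33 without KO 3 and 0.30 without both. With the 4 members included it went from 0.30 to -0.19 without both.

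Between Usp38 and Scoc only 1 tested gene other than Ucp1 was no member. Il15, a cytokine gene, had a log2 fold change of 0.46 (SE 0.37). Over the whole 2.5 Mb on each side 65 genes other than Ucp1 and the members were tested, and 10 of them (15.4%) had an unadjusted p under 0.05, where the share over all genes is 11.8%. Without KO 2 they were 5 (7.69%, all genes 9.54%), without KO 3 they were 3 (4.62%, all genes 6.53%) and without both WT 2 and KO 3 they were 4 (6.15%, all genes 8.49%). From 0.5 to 1 Mb after Ucp1, 0 of 18 genes passed in edgeR, DESeq2 or limma-voom and 0 had an unadjusted p under 0.05. Of these 18, 9 did not overlap between the groups, 8 of them higher in KO, where 19.5% of all genes did not overlap in either direction. Beyond 0.5 Mb, members aside, the smallest p-values belonged to Dnase2a (log2 0.85, SE 0.26), Rnaseh2a (-0.66, SE 0.26), Dand5 (-0.79, SE 0.32) and Fbxw9 (0.58, SE 0.25), all from 1.52 to 1.76 Mb after Ucp1. None of the 4 passed after adjustment in edgeR, DESeq2 or limma-voom.

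The other gene of chromosome 8 past the edgeR threshold was Rps13-ps1, a processed pseudogene 3.75 Mb after Ucp1 (87047689 to 87048226). It gave WT levels of 34.2, 27.3 and 52.0 CPM against KO levels of 3.82, 2.70 and 2.44 CPM (log2 -3.66, SE 0.30, edgeR adjusted p = 0.00498). Reads of a processed pseudogene can be shared with its parent gene. From 2.5 to 5 Mb away, where Rps13-ps1 lies, 5 of 23 tested genes (21.7%, all genes 11.8%) had an unadjusted p under 0.05. Of these 23, 9 did not overlap between the groups, 6 of them lower in KO, where 19.5% of all genes did not overlap. Among 718 tested genes of chromosome 8 over 5 Mb away, 80 (11.1%) had an unadjusted p under 0.05 and 0 passed in edgeR. DESeq2 called 3 and limma-voom 0 of them. All samples carry the same strain label. Were the DNA around Ucp1 to differ between WT and KO mice, that and the loss of PGAM5 cannot be told apart here.

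Relatives of the members elsewhere in the genome were listed by family, 16 in all, and 13 of them were tested. The other 3, Rnf133, Rnf148 and Znrf4, held 0, 1 and 0 counts in all. In edgeR, DESeq2 and limma-voom 0 of the 13 passed, where edgeR called 0.0595% and DESeq2 1.12% of all genes in either direction. In edgeR 1 of the 13 had an unadjusted p under 0.05 (7.69%, all genes 11.8%). Their median log2 fold change was 0.01, as against 0.00 over all genes. The tested relatives of Rnf150, Rnf13 (log2 -0.25, SE 0.21), Rnf128 (-0.24, SE 0.36), Rnf130 (-0.19, SE 0.15), Rnf149 (0.08, SE 0.20) and Rnf167 (0.01, SE 0.15), all overlapped between the groups. Rnf13, the most abundant of them, averaged 99.1 ± 5.18 CPM over WT against 83.4 ± 21.1 CPM over KO (SD, n = 3 each). The gene with the unadjusted p under 0.05 was Usp35, the relative of Usp38, at 1.85 ± 0.537 and 3.22 ± 0.597 CPM (log2 0.81, SE 0.34, edgeR adjusted p = 0.417). Tbc1d8, a relative of Tbc1d9, came next (log2 0.51, SE 0.25, with an edgeR adjusted p = 0.447).

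**Figure D3:**
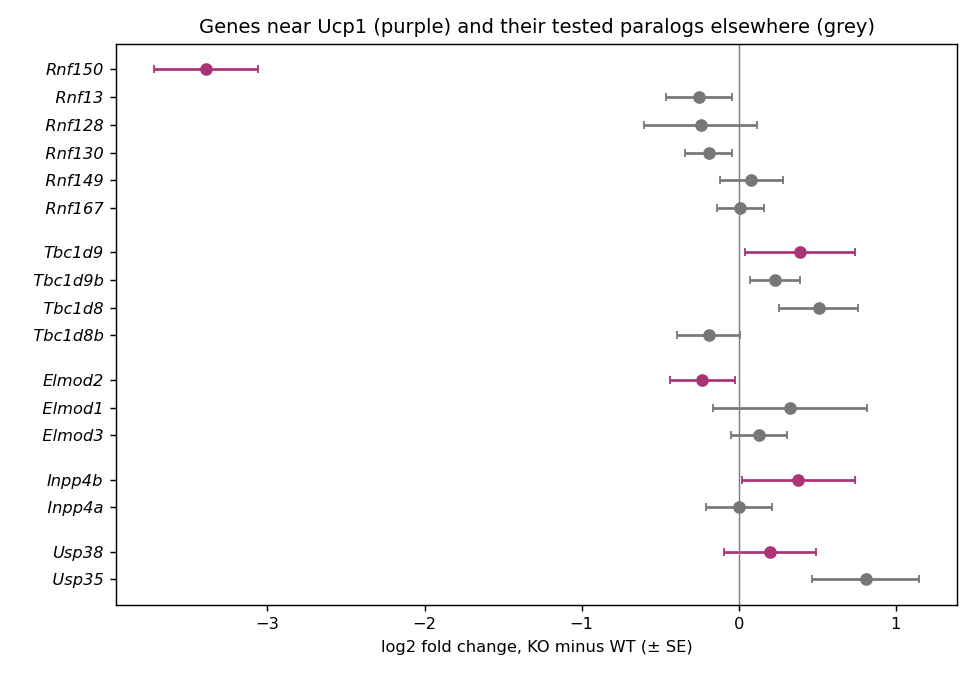
Log2 fold change, KO minus WT, with its SE (x axis) of members near Ucp1 and of their tested relatives on other chromosomes (rows, grouped by family). Canx, the tested relative of Clgn, is not shown. Rnf150 stands at -3.39 and its 5 relatives between -0.25 and 0.08.

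Genes that share a role with a member were described in the same way, and their counts at an unadjusted p under 0.05 stand against 11.8% of all genes. Of 22 tested phosphoinositide phosphatases, the class of Inpp4b, 0 passed in edgeR or limma-voom, 2 (9.09%) had an unadjusted p under 0.05 and DESeq2 called 1. Inppl1, which encodes the phosphatase SHIP2, averaged 73.5 ± 8.96 CPM over WT against 122 ± 13.1 CPM over KO (SD, n = 3 each), a log2 difference of 0.73 with SE 0.17 and an edgeR adjusted p = 0.306. For Pip4p2 the value was log2 -0.43 (SE 0.19), with an edgeR adjusted p = 0.420. The median of the class was 0.08.

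Of 13 genes around Arl2, the GTPase that Elmod2 acts on, 0 passed with edgeR, DESeq2 or limma-voom and 1 had an unadjusted p under 0.05. Those of smallest p were Rp2 (log2 -0.52, SE 0.23) and the tubulin cofactor gene Tbcd (0.44, SE 0.22). Of 9 genes of the lectin chaperone cycle, to which Clgn belongs, 0 passed in edgeR, DESeq2 or limma-voom and 1 had an unadjusted p under 0.05. DESeq2 on the filtered genes called 1. Calr3, a germ cell relative of calreticulin on chromosome 8, 10.8 Mb before Ucp1, averaged 11.5 ± 2.15 CPM over WT against 6.18 ± 0.360 CPM over KO (SD, n = 3 each), a log2 difference of -0.89 with SE 0.22 and an edgeR adjusted p = 0.309. Prkcsh, a glucosidase subunit gene, had a log2 fold change of 0.42 (SE 0.22).

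Of 6 partners of Scoc, 0 passed with edgeR, DESeq2 or limma-voom and 3 had an unadjusted p under 0.05, 2 of them lower and 1 higher (11.8% of all genes reached this p in either direction). Arl1, a Golgi GTPase gene, averaged 119 ± 20.8 CPM over WT against 84.8 ± 15.1 CPM over KO, and Fez2 28.4 ± 1.28 against 37.7 ± 6.33 CPM (SD, n = 3 each). Their log2 fold changes were -0.49 (SE 0.20) and 0.41 (SE 0.17). Of 23 other genes of the TBC family, 0 passed by the same 3 tools and 3 (13.0%, all genes 11.8%) had an unadjusted p under 0.05, among them Tbc1d2b (log2 0.65, SE 0.24) and Tbc1d16 (0.59, SE 0.25). In this family 18 of 23 genes were positive, with a median of 0.27, where 49.8% of all genes were positive with a median of 0.00. The sign of single genes was not tested.

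The genes most like Rnf150 were sought among 13220 others with a mean of at least 1 CPM, by the Pearson correlation of log2 CPM over the 6 libraries. The 5 highest were Commd7 (r = 0.999), Heca and Cct2 (0.996 each), Mettl2 (0.994) and Wdr92 (0.993), all on other chromosomes. They share its pattern over the libraries but not the size of its difference, with log2 fold changes from -0.51 in Mettl2 to -0.13 in Commd7. Scoc (r = 0.97) ranked 34 and Zfp330 (r = 0.96) ranked 50 in that list, and Ucp1 stood at -0.95. Elmod2 (0.39), Inpp4b (-0.25), Usp38 (-0.44) and Tbc1d9 (-0.50) were less alike. These are descriptions over 6 libraries that include the difference between the groups.

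Among markers of other cell types, the summed level of those of T, NK and B cells did not overlap between the groups. It ran from 7.47 to 11.2 CPM in WT and from 14.7 to 21.1 CPM in KO, with 7 of 8 tested of 12 listed genes positive (median log2 fold change 0.51), none at 0. Brown adipocyte markers without Ucp1 summed to 2849 to 4023 CPM in WT and 3147 to 3873 CPM in KO. Skeletal muscle markers ran from 68.4 to 120 CPM and from 60.7 to 99.6 CPM, and Schwann cell markers from 163 to 178 and from 146 to 210 CPM. Summed macrophage, endothelial, fibroblast, pericyte, white adipocyte and pan-adipocyte markers also overlapped between the groups. By gene, 8 of 8 endothelial (median 0.29), 7 of 8 pericyte (0.39) and 7 of 8 Schwann cell markers (0.59) were positive as well. Positive too were 5 of 10 brown adipocyte (0.06), 3 of 6 pan-adipocyte (0.01) and 5 of 8 fibroblast markers (0.15). Of skeletal muscle markers 1 of 9 (-0.68), of white adipocyte markers 1 of 5 (-0.42) and of macrophage markers 2 of 8 (-0.06) were positive. Of all tested genes 49.8% were positive. Of all these only the white adipocyte marker Hoxc9 was at 0 in every library. The part of any of these lists in the levels of Rnf150, Scoc and Zfp330 was not tested.

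**Figure D4:**
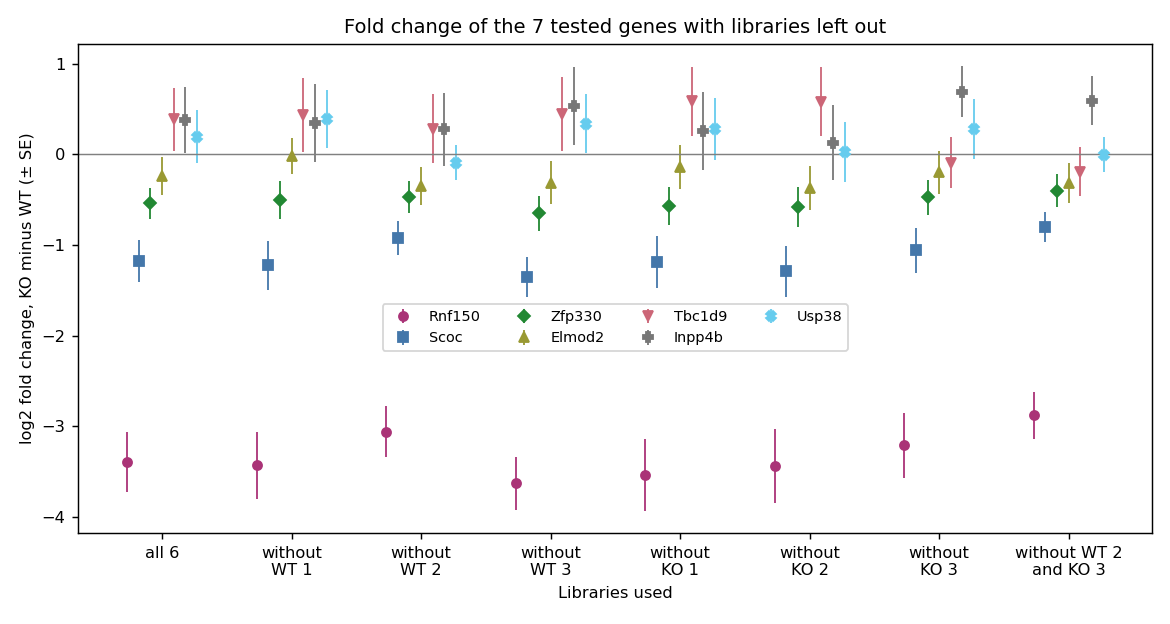
Log2 fold change, KO minus WT, with its SE (y axis) of the 7 tested members with all 6 libraries and with libraries left out (x axis). Rnf150 stays between -3.63 and -2.88, Scoc between -1.35 and -0.80, and Tbc1d9 and Usp38 change sign.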

How the data were processed

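The deposited values are the authors' raw counts per gene, held in 1 table with columns for 6 libraries, which were matched to samples by name. The submitters' processing notes list HISAT2 2.1.0 and featureCounts 1.6.2 beside DESeq2, with mm10 as the build. No source used here gives the annotation release or says whether counting used strand, so overlapping genes on opposite strands may share reads. The labels' protocols describe a stranded mRNA kit. GENCODE M21 (mm10) gave a symbol and position for 53620 of 53715 identifiers.

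The filter was filterByExpr (minimum count 10, minimum total 15), which left 15123 genes. The test of KO against WT was the quasi-likelihood F-test of edgeR 4.0.16 with TMM factors, genotype as the only term and Benjamini-Hochberg adjustment over all tested genes, under R 4.3.3. CPM values are TMM-scaled, and log2 CPM used a prior count of 2. Alternatives were DESeq2 size factors, DESeq2 1.42.0, voom of limma 3.58.1, no filter, a stricter filter, a replicate block and libraries left out. DESeq2 on the filtered genes was added after seeing the data. The code was tested on simulated counts with known changes in genes of at least 1 CPM. Over 3 draws the edgeR fit called 89.3% of 4-fold and 37% of 2-fold changes. Of its calls 9.38% were false, so a gene that did not pass may still differ.

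The members, gene lists and tests were chosen with earlier results of these data known. By rule the text names the members, Ucp1, Pgam5, every tested gene within 0.5 Mb, up to 4 genes from 0.5 to 2.5 Mb and up to 2 of each list of related genes by smallest p, the called genes of chromosome 8 and the 5 genes most like Rnf150. Of the genes within 0.5 Mb, 1 is counted but not reported here by name. Il15 and the relatives of Rnf150 were named after their values were seen. KO replicate 4 was not analysed here, so 3 libraries stand against 3. No libraries held identical values.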

Additional observations from a re-analysis of the deposited data

How the results depend on the processing

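The number of genes called was 9 with all 6 libraries. It was 168 with DESeq2, 187 with DESeq2 on the filtered genes, 663 with no filter and 27 without both WT 2 and KO 3. With each library left out in turn it was 0 to 17: without KO 2 edgeR called 0 and counted 1482 at an unadjusted p under 0.05, without KO 1 it called 1 and without WT 2 it called 17. The count within 0.5 Mb of Ucp1 at an unadjusted p under 0.05, members included, was 7 of 13 with all libraries (all genes 11.8%). It was 2 to 6 with each library left out (all genes 6.53% to 12%) and 4 without both (all genes 8.49%). The 2 without KO 3 were the members Rnf150 and Scoc. The median log2 fold change within 0.5 Mb was 0.052 with DESeq2 and 0.067 with no filter, which test 21 genes in place of 13. It was -0.026 to 0.350 with each library left out, the lowest without KO 3, and -0.189 without both WT 2 and KO 3. Tbc1d9 ran from -0.093 (without KO 3) to 0.584 with each library left out and was -0.189 without both. Usp38 ran from -0.089 (without WT 2) to 0.390 and was -0.002 without both. The cause was not tested. Elmod2 ran from -0.368 to -0.021 and Inpp4b from 0.131 to 0.693 over the 14 alternatives. Rnf150, Scoc and Zfp330 kept their direction in all 14. Their KO libraries all lay below their WT libraries, so leaving libraries out could hardly reverse that direction, and nothing is read from it. Scoc and Ucp1 passed in 3 of 14, with DESeq2, DESeq2 on the filtered genes and no filter. With the replicate number as a block, 5 genes were called, among them Rnf150 (log2 -3.356), and no member changed its call. The numbers were not shown to pair libraries: deviations from the group means of same-numbered libraries correlated at -0.11, 0.10 and 0.09. Clgn, with 10 counts, did not pass the filter, and no fold is given for it.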
